A study of Mus musculus with 20 samples.

Results

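The miR-181 family was followed in primary cortical neurons of the mouse through 7 rows of a small RNA sequencing data set, out of 1481 rows in all. The rows were chosen by name, with earlier results of these data known. They are the 5p strands mmu-miR-181a-5p, mmu-miR-181b-5p, mmu-miR-181c-5p and mmu-miR-181d-5p, and the 3p strands mmu-miR-181a-1-3p, mmu-miR-181a-2-3p and mmu-miR-181c-3p. The species prefix mmu is left out below. The tables hold 3 further rows of the name, miR-181b-1-3p, miR-181b-2-3p and miR-181d-3p, which are described beside them where the opposite strand is needed. Neurons were taken from cortices at embryonic day 15 and grown for 7 days. All 20 cultures carry the strain label C57BL/6N-Cdr1asem1Nikr, with the genotype given separately as wild type or as knockout of ciRS-7, a circular RNA that is also called Cdr1as. Exposure lasted 12 h and was to normoxia (5% CO2, 37 °C, 25 mM glucose and 0.2 mM pyruvate added) or to oxygen-glucose deprivation (OGD), a culture model of ischaemia with 1% O2, 5% CO2, 37 °C and neither glucose nor pyruvate added. Each of the 4 groups (wild type in normoxia, wild type after OGD, knockout in normoxia, knockout after OGD) had 5 biological replicates. The labels do not say whether a replicate is 1 embryo or a pool. ciRS-7 itself is not a row of these tables, so the knockout could not be checked on its target here.

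A microRNA precursor folds into a hairpin, and each of its arms can give a mature strand, named 5p or 3p. Usually 1 strand, the guide, is loaded into an Argonaute protein and the other, the passenger, is degraded, and a guide finds its targets mainly through its seed, bases 2 to 8. Mammals carry the miR-181 genes as clusters of an a or c gene beside a b or d gene. The family is known from lymphocyte development and is abundant in brain, where it has been studied in ischaemic injury because it represses regulators of apoptosis and an endoplasmic reticulum chaperone.

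The mature sequences show what the rows share and how closely they resemble each other. They are RefSeq sequences (GRCm38.p6), matched by name for 10 of 10 miR-181 rows and for 1248 of the 1481 rows of the tables, written 5′ to 3′ with the seed in capitals. The 4 strands of the 5p arm carry the same seed, ACAUUCA, and no other matched row of the tables has it:
miR-181a-5p: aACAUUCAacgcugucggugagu
miR-181b-5p: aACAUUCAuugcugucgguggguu
miR-181c-5p: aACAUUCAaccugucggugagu
miR-181d-5p: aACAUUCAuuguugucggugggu
Counted from the 5′ end, miR-181d-5p differs from miR-181b-5p by C12U and the lack of the last base. From miR-181a-5p to miR-181b-5p the substitutions are A9U, C10U and A21G, followed by 1 more base, and miR-181c-5p is miR-181a-5p with the base at position 11 removed. How reads that fit several of these strands were assigned is not given in the sources used here, so the split between close relatives is uncertain to that extent.

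The 3p strands fall into several seed groups and show which precursor a read came from, since miR-181a-5p and miR-181b-5p each arise from 2 precursors:
miR-181a-1-3p: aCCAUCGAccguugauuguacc
miR-181c-3p: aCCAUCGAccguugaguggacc
miR-181a-2-3p: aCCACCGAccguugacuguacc
miR-181d-3p: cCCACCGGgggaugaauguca
miR-181b-1-3p: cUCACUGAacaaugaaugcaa
miR-181b-2-3p: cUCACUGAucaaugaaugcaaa
miR-181a-1-3p and miR-181c-3p share the seed CCAUCGA although they come from different chromosomes, and differ by U16G and U19G. miR-181a-2-3p differs from miR-181a-1-3p by U5C, which lies within the seed, and by U16C. The strands miR-181b-1-3p and miR-181b-2-3p share the seed UCACUGA.

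The 6 precursors lie in 3 clusters (GRCm38 coordinates, GENCODE annotation). Mir181a-1 at chr1:137966455-137966541 and Mir181b-1 at chr1:137966639-137966718 are on the plus strand, 97 bases apart, within an intron of the noncoding gene Gm4258 on the same strand. Mir181b-1 also overlaps an exon of the long noncoding RNA A430106G13Rik, and the lincRNA Gm26936 spans both precursors on the other strand. Mir181a-2 at chr2:38852735-38852810 and Mir181b-2 at chr2:38853830-38853918 are on the plus strand, 1019 bases apart, within an intron of Nr6a1, an orphan nuclear receptor gene of the minus strand. Mir181b-2 also overlaps an exon of Gm44144, a transcript of type TEC on the minus strand. Mir181c at chr8:84178873-84178961 and Mir181d at chr8:84178716-84178787 are on the minus strand, 85 bases apart, in an intron of Nanos3, an RNA-binding protein of germ cells, on the same strand.

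The values below are scaled counts (CPM), from whole reads recovered from the deposited values. Reads were scaled to the library size that the deposited values imply, which was 0.923 to 1.08 times the sum of a library's recovered reads. Libraries held 1160582 to 12477032 reads. After OGD they held 1160582 to 4374002 and in normoxia 2492065 to 12477032, so depth moved with treatment. A count of 3 reads equals 0.249 to 2.55 CPM, and the 7 rows had at least 77 reads in every library. Summed over 6 miRNAs of neurons, the libraries held 292975 to 389896 CPM, against 269 to 393 CPM for 2 of endothelium. Most of the neuron sum was miR-9-5p, with group means of 259214 to 274360 CPM, against 3392 to 5628 CPM for miR-124-3p. The sum thus describes mainly that 1 row and is no measure of purity. For 6 miRNAs of microglia and other blood-lineage cells, each with reads in every group, the sum ran from 1.11 to 3.02 CPM in wild-type normoxia and 1.21 to 5.56 after OGD, and from 1.78 to 3.08 and 2.23 to 6.38 CPM in knockout. For 4 miRNAs of glia and mural cells it ran from 42.8 to 53.1 and 44.2 to 64.7 CPM in wild type and from 37.2 to 63.3 and 50.1 to 78.4 CPM in knockout. The upper ends were thus higher after OGD, and the part of these cells in the results was not tested. In bulk RNA, fewer cells of a type and less RNA per cell cannot be told apart. On the first principal component, which held 83.0% of the variance over 423 rows and separated OGD from normoxia, replicate 5 of wild-type normoxia stood apart at -0.88, between the other 9 normoxic libraries (-14.46 to -6.46) and the 10 OGD libraries (7.00 to 15.05). Without it, limma gave the same calls for the 7 rows in wild type. The log2 changes after OGD were then 0.46 for miR-181a-5p, 0.27 for miR-181b-5p (limma adjusted p = 0.0280), 0.74 for miR-181c-5p, 0.33 for miR-181d-5p and -0.33 for miR-181a-2-3p (limma adjusted p = 0.114), and those of the other rows are given below.

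In normoxic wild-type neurons the family was dominated by miR-181a-5p at 12356 CPM ± 785 (SD, n = 5). It was followed by miR-181b-5p at 6994 ± 590 CPM and miR-181d-5p at 3737 ± 146 CPM. Then came 3p strands, miR-181a-1-3p at 1045 ± 202 CPM and miR-181c-3p at 437 ± 83.3 CPM, ahead of the 5p strand miR-181c-5p at 138 ± 17.7 CPM and miR-181a-2-3p at 113 ± 14.6 CPM. These are levels of mature strands of 22 to 24 bases. Only the last 2 neighbours in this order overlapped between libraries, at 117 to 163 CPM for miR-181c-5p and 99.9 to 129 CPM for miR-181a-2-3p. The 3 further rows were lower still, at 60.9 CPM for miR-181b-1-3p, 7.60 CPM for miR-181b-2-3p and 3.63 CPM for miR-181d-3p. Knockout neurons in normoxia gave the same order of means, from 12489 ± 977 CPM for miR-181a-5p to 117 ± 11.5 CPM for miR-181a-2-3p. The 4 strands with the shared seed made up 2.30% ± 0.114 of a library's recovered reads in wild type and 2.36% ± 0.117 in knockout.

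After OGD the 4 strands with the shared seed were a larger share of the miRNA reads in both genotypes. In wild type their sum went from a range of 2.14% to 2.45% of recovered reads in normoxia to 2.94% to 3.32%, and in knockout from 2.25% to 2.53% to 2.82% to 3.37%, with no overlap in either. Changes of each row were tested with limma on log2(CPM + 0.5) over the whole table, with Benjamini-Hochberg adjustment and a threshold of 0.05. In wild type 5 of the 7 rows passed, 4 higher and 1 lower, where 23.1% of all 1478 rows passed (18.7% higher, 4.4% lower), and 47.3% of the 425 rows with a mean log2 level of at least 3, as all 7 have. In knockout 7 of 7 passed, 5 higher and 2 lower, where 24.5% of all 1479 rows (18.8% higher, 5.75% lower) and 53.6% of the 420 rows at that level did. With all libraries thinned to the depth of the shallowest, 4 of 7 passed in wild type and 7 of 7 in knockout, beside 15.6% and 16.2% of all rows. The median log2 change of the 7 rows was 0.29 in wild type and 0.29 in knockout, beside 0.32 and 0.24 over all rows. The direction for miR-181a-5p, miR-181b-5p, miR-181d-5p and miR-181c-3p held in CPM and turned when libraries were centred on their median row, as described below.

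**Figure D1:**
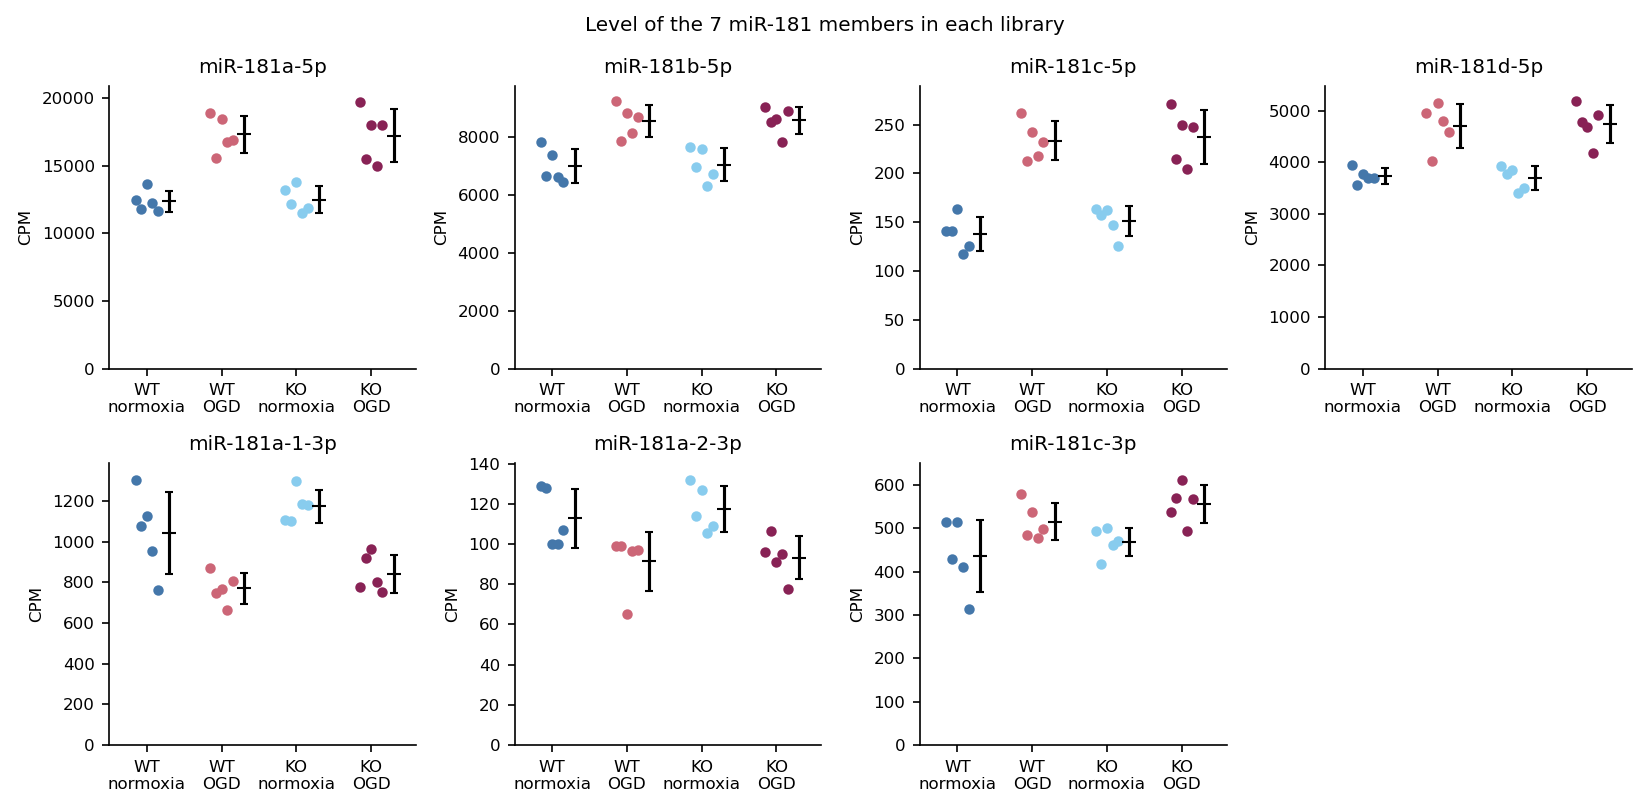
Level in CPM (vertical axes, from 0) of the 7 miR-181 rows in each of the 20 libraries, by genotype (WT, wild type, or KO, ciRS-7 knockout) and treatment. Points are libraries and the bar beside them is the mean with its SD (n = 5): the 5p strands sit higher after OGD, for example miR-181c-5p at 213 to 262 CPM against 117 to 163 CPM in wild type, and miR-181a-1-3p and miR-181a-2-3p have lower means.

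miR-181a-5p, the most abundant member, had 12476, 11797, 13621, 12255 and 11630 CPM in the wild-type normoxic libraries and 18922, 15595, 18443, 16748 and 16888 CPM in those after OGD. In knockout it had 13174, 12145, 13817, 11463 and 11847 CPM in normoxia and 19670, 15493, 17982, 14934 and 18002 CPM after OGD. Every OGD library was above every normoxic library of its genotype. The log2 change was 0.49 in wild type (SE 0.086, limma adjusted p = 0.000297) and 0.46 in knockout (SE 0.088, adjusted p = 0.000829), or 1.40-fold and 1.37-fold.

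miR-181c-5p, the least abundant of the strands with this seed, had the largest change of the 4 in CPM, though under quantile normalization in wild type its change of 0.38 was smaller than the 0.46 of miR-181b-5p. On the deposited values, which are not log2 CPM, miR-181a-5p changed more (1.09 in wild type and 0.87 in knockout, against 0.99 and 0.75). miR-181c-5p had 141, 141, 163, 117 and 126 CPM in wild-type normoxia and 262, 213, 243, 218 and 232 CPM after OGD. In knockout it had 163, 157, 162, 147 and 126 CPM in normoxia and 271, 215, 250, 204 and 248 CPM after OGD. The groups did not overlap in either genotype. The log2 change was 0.77 in wild type (SE 0.12, limma adjusted p = 8.35e-05) and 0.65 in knockout (SE 0.11, adjusted p = 0.000177), or 1.70-fold and 1.57-fold.

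miR-181b-5p and miR-181d-5p, from different clusters but alike in sequence, were both higher after OGD in CPM in both genotypes. miR-181b-5p lay at 6461 to 7839 CPM in wild-type normoxia and at 7887 to 9252 CPM after OGD, a log2 change of 0.29 (SE 0.088, limma adjusted p = 0.0200). In knockout it went from 6313 to 7655 CPM to 7840 to 9044 CPM, a log2 change of 0.29 (SE 0.076, limma adjusted p = 0.0101). miR-181d-5p lay at 3558 to 3958 CPM and 4036 to 5147 CPM in wild type, a log2 change of 0.33 (SE 0.088, limma adjusted p = 0.0106). Its knockout libraries lay at 3402 to 3930 CPM and 4187 to 5183 CPM, a log2 change of 0.36 (SE 0.077, limma adjusted p = 0.00192). Again no OGD library overlapped its normoxic group. Among rows at a mean log2 level of at least 3, 27.3% in wild type and 33.6% in knockout were higher after OGD without overlap, as were these 4 strands in both genotypes. The wild-type call of miR-181b-5p was lost without normoxic replicate 2 or 4, with a highest limma adjusted p of 0.0610.

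Of the 3p strands of the a genes, miR-181a-1-3p fell in both genotypes and miR-181a-2-3p passed in knockout but not in wild type. The difference between genotypes did not pass for either, as given further below. miR-181a-1-3p, which comes from the chromosome 1 precursor alone, had 1304, 1077, 1126, 957 and 761 CPM in wild-type normoxia and 868, 747, 767, 663 and 807 CPM after OGD. In knockout it had 1104, 1102, 1299, 1185 and 1179 CPM in normoxia and 776, 921, 962, 800 and 754 CPM after OGD. The wild-type groups overlapped through replicate 5 of normoxia, and the knockout groups did not overlap. The log2 change was -0.42 in wild type (SE 0.13, limma adjusted p = 0.0225) and -0.48 in knockout (SE 0.087, adjusted p = 0.000493). Without replicate 5 of wild-type normoxia it was -0.53 (SE 0.10, limma adjusted p = 0.000708). The wild-type call was lost in 7 of 10 fits that each left out 1 library, namely normoxic replicate 1, 2 or 3 or OGD replicate 2, 3, 4 or 5, with a highest adjusted p of 0.0801. It was also lost in thinned libraries (-0.41, limma adjusted p = 0.0806).

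miR-181a-2-3p, from the chromosome 2 precursor, had 129, 128, 99.9, 99.9 and 107 CPM in wild-type normoxia and 98.8, 98.8, 65.4, 96.7 and 96.9 CPM after OGD. Replicate 3 after OGD was lowest, and although the groups did not overlap the log2 change of -0.31 (SE 0.14) did not pass (limma adjusted p = 0.139). Without that library the change was -0.19 (SE 0.11, limma adjusted p = 0.249). Only 8% of the rows at a mean log2 level of at least 3 were lower after OGD in wild type without overlap. In knockout the libraries lay at 105 to 132 CPM in normoxia and 77.5 to 107 CPM after OGD, with overlap through 1 OGD library. There the log2 change was -0.33 (SE 0.11, limma adjusted p = 0.0338), a call lost in 5 of 10 fits without 1 library (normoxic replicates 1, 2 and 3, OGD replicates 3 and 5), with a highest adjusted p of 0.0833, and in a fit of all 20 libraries (limma adjusted p = 0.0610). For miR-181a-1-3p in knockout, the share of such rows lower without overlap was 11.2%.

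miR-181c-3p, the 3p strand with the same seed as miR-181a-1-3p, had higher means after OGD in CPM, and passed in knockout but not in wild type. Its direction turned in both genotypes when libraries were centred, as given below. It had 515, 429, 514, 411 and 314 CPM in wild-type normoxia and 578, 485, 538, 478 and 498 CPM after OGD, overlapping groups with a log2 change of 0.26 (SE 0.13, limma adjusted p = 0.166). In knockout it had 492, 417, 500, 460 and 471 CPM in normoxia and 538, 570, 612, 494 and 567 CPM after OGD, with a log2 change of 0.25 (SE 0.084, limma adjusted p = 0.0418). Without replicate 5 of wild-type normoxia the wild-type change was 0.15 (SE 0.10, limma adjusted p = 0.339). The knockout call was lost in 6 of 10 fits without 1 library (normoxic replicates 2, 4 and 5, OGD replicates 2, 3 and 5) and in a fit of all 20 libraries (limma adjusted p = 0.115).

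Of the 3 further rows, miR-181b-1-3p fell from 60.9 to 39.1 CPM in wild type and from 65.4 to 40.9 CPM in knockout, log2 changes of -0.66 and -0.67 (SE 0.18 and 0.14, limma adjusted p = 0.0102 and 0.00151). miR-181d-3p fell from 3.63 to 1.59 CPM and from 4.59 to 1.94 CPM, on 1 to 13 reads in each OGD library (limma adjusted p = 0.0362 and 0.00610). The wild-type call of miR-181d-3p was lost in 8 of 10 fits without 1 library, all but those without normoxic replicate 5 or OGD replicate 1, and with voom (limma adjusted p = 0.0507). Both of its calls were lost in libraries thinned to the shallowest (limma adjusted p = 0.193 in wild type and 0.328 in knockout). miR-181b-2-3p had 7.60 and 4.56 CPM in wild type and 8.84 and 6.05 CPM in knockout, which did not pass (limma adjusted p = 0.0756 and 0.0685). It did pass without wild-type OGD replicate 1 (log2 change -0.94, limma adjusted p = 0.0292), and in knockout without OGD replicate 3 (-0.70, limma adjusted p = 0.0107). It also passed in both genotypes, and lower, when centred as below. The same held with quantile normalization (limma adjusted p = 0.00551 and 0.00144) and median-of-ratios size factors (limma adjusted p = 0.0222 and 0.0104). With the replicate number as a block it passed in wild type (limma adjusted p = 0.0227) but not in knockout (limma adjusted p = 0.0658).

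The rise of the 5p strands depended on what each library was scaled to. The median level within a library was higher after OGD by 0.56 log2 units in wild type and by 0.51 in knockout, over rows with a mean log2 level of at least 3. The median of the log2 changes of those same rows was 0.22 and 0.20. Centring left 108 rows called higher and 265 lower in wild type (276 and 65 in CPM) and 112 higher and 324 lower in knockout (278 and 85 in CPM). When each library was centred on that median, the log2 change became -0.075 and -0.051 for miR-181a-5p, -0.27 and -0.22 for miR-181b-5p and -0.23 and -0.15 for miR-181d-5p in wild type and knockout, with limma adjusted p from 0.0530 to 0.749. With the replicate number as a block on centred libraries, the wild-type changes of miR-181b-5p and miR-181d-5p passed as lower (limma adjusted p = 0.00211 and 0.0161). miR-181c-5p remained positive at 0.20 and 0.14 without passing (limma adjusted p = 0.250 and 0.389). With median-of-ratios size factors miR-181c-5p passed at 0.50 and 0.39 (limma adjusted p = 0.00322 and 0.0111). Under those factors the other 3 were positive without passing, from 0.023 to 0.22 (limma adjusted p = 0.0686 to 0.862). Centred changes of miR-181a-1-3p were -0.98 and -0.99 and those of miR-181a-2-3p were -0.87 and -0.84, further below 0 than in CPM, and all 4 passed, which miR-181a-2-3p in wild type did not do in CPM (limma adjusted p = 0.000285 or lower). miR-181c-3p was negative when centred, at -0.30 and -0.26 (limma adjusted p = 0.107 and 0.0511), and passed as lower in both genotypes with the block (limma adjusted p = 0.00852 and 0.0335). Quantile normalization kept the 4 strands with the shared seed above 0, and all 4 passed in wild type, from 0.21 for miR-181d-5p to 0.46 for miR-181b-5p (limma adjusted p = 0.000309 to 0.0319). In knockout it gave 0.30 to 0.35 for miR-181b-5p, miR-181c-5p and miR-181d-5p, which passed (limma adjusted p = 0.00337 to 0.0242), and 0.22 for miR-181a-5p, which did not (limma adjusted p = 0.0775). miR-181c-3p was at 0.017 and 0.092 under it and passed in neither genotype (limma adjusted p = 0.931 and 0.533). These data hold no measure of total RNA per cell, so amounts per cell were not tested.

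**Figure D2:**
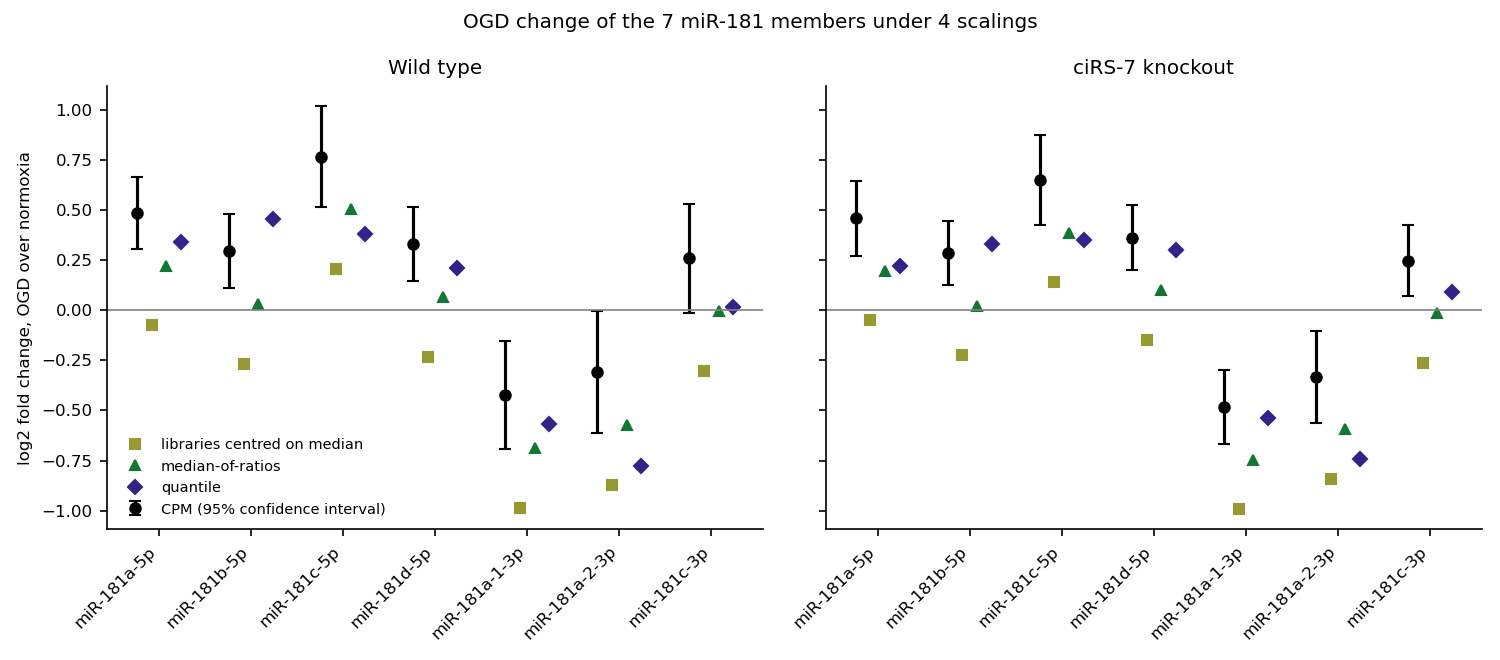
log2 fold change of OGD over normoxia (vertical axes) for the 7 miR-181 rows in wild type and in ciRS-7 knockout under 4 scalings. Circles with bars are the limma estimate on CPM with its 95% confidence interval, and the other markers are point estimates: miR-181a-5p, miR-181b-5p, miR-181d-5p and miR-181c-3p cross 0 when libraries are centred on their median, miR-181c-5p stays above 0, and miR-181a-1-3p and miR-181a-2-3p stay below 0 under all 4.

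A ratio between the arms of a precursor within a library does not depend on scaling. For each 3p row the reads were divided by those of its 5p row. miR-181a-5p and miR-181b-5p come from 2 precursors each, so their 5p reads serve as denominator for both and the ratios share them. After OGD the 3p to 5p ratio was lower for all 6 stems in both genotypes, and each passed limma. The fit held the 118 stems with both arms at a mean log2 level of at least 3, of which 4 are miR-181 stems. In that fit 65.3% of stems passed in wild type and 69.5% in knockout, and 38.1% and 41.5% passed with a lower 3p to 5p ratio. Lower ratios without overlap of the groups were found in 26.3% and 30.5% of stems.

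The miR-181a-1 stem gave 105, 91.3, 82.7, 78.1 and 65.5 miR-181a-1-3p reads per 1000 miR-181a-5p reads in wild-type normoxia and 45.9, 47.9, 41.6, 39.6 and 47.8 after OGD. In knockout it gave 83.8, 90.7, 94.0, 103 and 99.5 in normoxia and 39.5, 59.4, 53.5, 53.5 and 41.9 after OGD. Normoxic libraries were all higher than OGD libraries in both genotypes. The log2 change of the ratio was -0.91 in wild type (SE 0.14, limma adjusted p = 5.22e-05) and -0.94 in knockout (SE 0.13, adjusted p = 1.07e-05), a 1.88-fold and a 1.92-fold lower ratio. Without replicate 5 of wild-type normoxia the wild-type change was -0.996 (SE 0.13).

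The miR-181a-2 stem went from 9.17 ± 1.46 to 5.32 ± 1.07 miR-181a-2-3p reads per 1000 5p reads in wild type and from 9.39 ± 0.352 to 5.50 ± 1.08 in knockout (SD, n = 5). Its log2 changes were -0.80 and -0.79 (SE 0.18 and 0.14, limma adjusted p = 0.00117 and 0.000134). The miR-181b-1 stem went from 8.74 ± 1.19 to 4.57 ± 1.06 and from 9.36 ± 2.01 to 4.78 ± 0.758, with log2 changes of -0.96 and -0.95 (SE 0.18 and 0.16, limma adjusted p = 0.000342 and 0.000110). Neither stem's groups overlapped in either genotype. Without replicate 5 of wild-type normoxia the wild-type changes were -0.79 and -0.99 (limma adjusted p = 0.00235 and 0.000622).

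The miR-181c stem is the one in which the 3p arm was the more abundant. miR-181c-3p had 3.65, 3.04, 3.14, 3.51 and 2.50 times the reads of miR-181c-5p in wild-type normoxia and 2.21, 2.28, 2.21, 2.19 and 2.14 times after OGD. In knockout the ratio was 3.01, 2.66, 3.08, 3.12 and 3.75 in normoxia and 1.99, 2.65, 2.45, 2.42 and 2.29 after OGD. The 3p arm exceeded the 5p arm in every library, and the groups did not overlap, by a narrow margin in knockout. The log2 change of the ratio was -0.51 in wild type (SE 0.14, limma adjusted p = 0.00437) and -0.40 in knockout (SE 0.12, adjusted p = 0.00783). Here it was the major arm that lost ground, whereas in the other stems it was the minor one.

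The 2 stems with few 3p reads were fitted over 190 stems with both arms at a mean log2 level of at least 1, of which 52.1% passed in wild type and 52.6% in knockout. The miR-181b-2 ratio changed by -1.04 and -0.83 on the log2 scale (SE 0.26 and 0.23, limma adjusted p = 0.00731 and 0.00881), with overlapping groups. The miR-181d ratio changed by -1.40 and -1.46 (SE 0.32 and 0.24, limma adjusted p = 0.00387 and 0.000316), without overlap, on 1 to 13 reads of miR-181d-3p in each OGD library. The shares of the 190 stems called lower, or lower without overlap, were not counted.

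**Figure D3:**
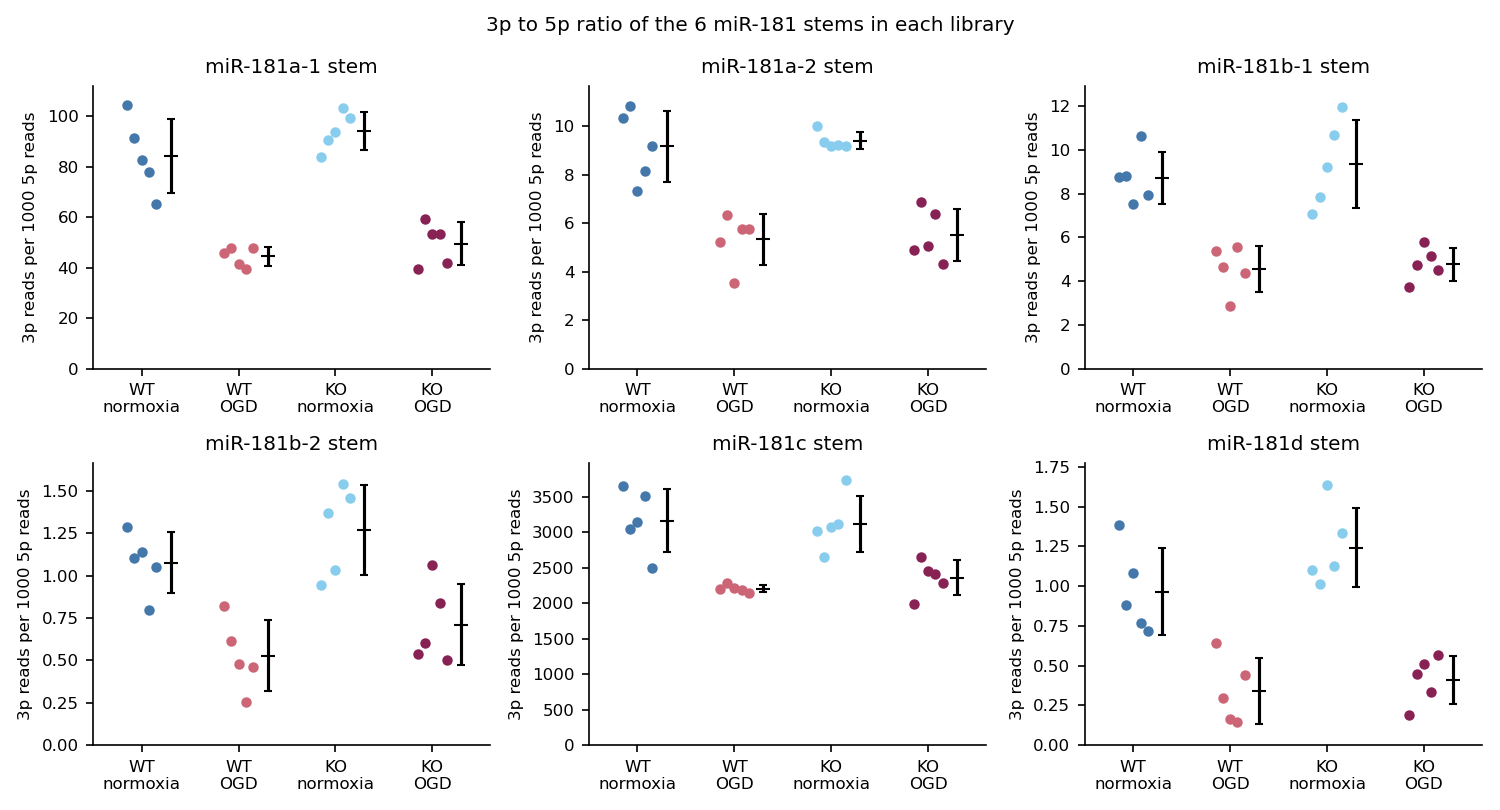
3p reads per 1000 5p reads (vertical axes, from 0) of the 6 miR-181 stems in each of the 20 libraries, by genotype and treatment. Points are libraries and the bar beside them is the mean with its SD (n = 5): for miR-181a-1 the wild-type mean goes from 84.4 in normoxia to 44.5 after OGD, and for miR-181c all libraries lie above 1000.

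Lower ratios of the minor arm were not the rule across the data. Over all 118 stems the median log2 change of the rarer arm against the other was -0.0054 in wild type and -0.013 in knockout. Among stems that passed, the rarer arm was lower in 40 and higher in 37 in wild type, and lower in 45 and higher in 37 in knockout. Where that rarer arm was the 3p arm, as in miR-181a-1, miR-181a-2 and miR-181b-1, it was lower in 26 of 44 and in 29 of 46. The median log2 change of 3p over 5p was -0.12 in wild type and -0.17 in knockout. The changes of 3p over 5p ranged from -2.44 to 4.27 in wild type and from -2.41 to 3.81 in knockout. Ordered from the lowest, miR-181b-1 stood at place 17 of 118 in both genotypes, miR-181a-1 at 19 and 18, miR-181a-2 at 22 and 22, and miR-181c at 41 and 43. The OGD effect in knockout less that in wild type did not pass for any of these 4 stems, at -0.032 to 0.11 on the log2 scale (limma interaction adjusted p = 0.996), and 0 of 118 stems passed that test.

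**Figure D4:**
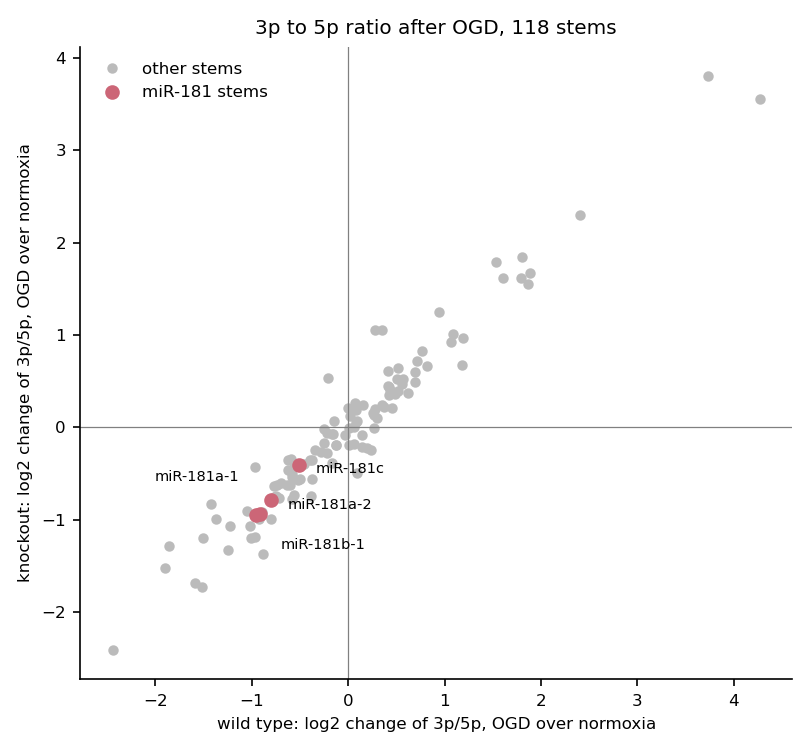
log2 change of the 3p to 5p ratio from normoxia to OGD in wild type (horizontal axis) and in ciRS-7 knockout (vertical axis) for 118 stems, from separate libraries. Points are stems: the miR-181 stems lie at -0.96 to -0.51 in wild type and -0.95 to -0.40 in knockout, inside the cloud of the other stems.

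Ratios between the 4 strands with the shared seed show whether they moved by unequal amounts. Of 20 ratio comparisons, 5 passed in an exact two-sided permutation test of 5 libraries against 5, which allows no p below 0.00794, with adjustment over the 20. miR-181c-5p gained on miR-181a-5p by 0.28 log2 units in wild type (SE 0.062) and 0.19 in knockout (SE 0.053), in both with exact p = 0.00794 and adjusted p = 0.0317. Its cluster neighbour miR-181d-5p lost against it by -0.44 in wild type (SE 0.091) and -0.29 in knockout (SE 0.065), with the same exact permutation p of 0.00794. miR-181b-5p lost against miR-181a-5p by -0.19 in wild type (SE 0.044, exact adjusted p = 0.0317) and -0.17 in knockout (SE 0.049, exact adjusted p = 0.0529). miR-181a-2-3p against miR-181a-1-3p, the strands that tell the a precursors apart, changed by 0.11 (SE 0.17, exact adjusted p = 0.698) and 0.15 (SE 0.10, exact adjusted p = 0.317). As shares of the pooled 5p reads, wild type went from 53.2% ± 1.33 to 56.2% ± 0.437 for miR-181a-5p and from 30.1% ± 1.18 to 27.8% ± 0.697 for miR-181b-5p. The share of miR-181c-5p went from 0.592% ± 0.0552 to 0.758% ± 0.0213 and that of miR-181d-5p from 16.1% ± 0.627 to 15.3% ± 0.623 (SD, n = 5). With libraries thinned to the depth of the shallowest, 0 of the 20 passed. The ratio of miR-181c-5p to miR-181a-5p then changed by 0.27 and 0.18 (exact adjusted p = 0.0529 and 0.113), that of miR-181d-5p to miR-181c-5p by -0.42 and -0.29 (exact adjusted p = 0.0529 and 0.0794) and that of miR-181b-5p to miR-181a-5p by -0.18 in wild type (exact adjusted p = 0.0529). With 1 library left out, 4 against 5 allow no p below 0.0159. Groups that do not overlap stay at that limit whichever library is removed, so these tests say nothing of stability. Each of the 5 ratios that had passed was thus at that limit in all 10 such tests. Their changes then ranged from 0.23 to 0.31 (wild type) and 0.14 to 0.21 (knockout) for miR-181c-5p over miR-181a-5p, from -0.50 to -0.38 and -0.32 to -0.24 for miR-181d-5p over miR-181c-5p, and from -0.21 to -0.15 for miR-181b-5p over miR-181a-5p in wild type.

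Loss of ciRS-7 did not move any member past the threshold. In normoxia the 7 differences of knockout over wild type ranged from -0.018 to 0.19 on the log2 scale, and after OGD from -0.013 to 0.13. With limma 0 of 7 rows passed in either comparison, where 0% of 1481 rows did, and the lowest unadjusted p among the 7 was 0.146 in normoxia and 0.217 after OGD. Over all rows, 47 in normoxia and 108 after OGD had an unadjusted p under 0.05. The 95% confidence intervals of the 7 differences lay between -0.17 and 0.45 in normoxia and between -0.25 and 0.34 after OGD. For miR-181a-5p the interval was -0.16 to 0.19 in normoxia and -0.20 to 0.17 after OGD. The row with the largest difference in normoxia, miR-181a-1-3p at 0.19 (SE 0.12), came to 0.079 (SE 0.091) without replicate 5 of wild-type normoxia, the lowest library of its group. No difference of the OGD effect between genotypes passed in the limma interaction over 20 libraries. The 7 differences ranged from -0.12 to 0.033 (lowest unadjusted p = 0.458, adjusted p = 0.990), and 0 of 7 passed beside 0% of 1481 rows, of which 74 had an unadjusted p under 0.05.

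Across the 20 libraries the rows outside the family whose log2 levels were most like the 5p strands were other miRNAs that were higher after OGD. These correlations describe libraries that share treatment groups and a common scaling. For miR-181a-5p the closest were miR-1839-3p (Pearson r = 0.963), miR-130b-3p (r = 0.952) and miR-23a-3p (r = 0.948), and for miR-181b-5p miR-1839-3p (r = 0.934), miR-23a-3p (r = 0.903) and miR-23b-3p (r = 0.899), among 415 rows. For miR-181c-5p they were miR-324-5p (r = 0.954), miR-154-5p (r = 0.947) and miR-1839-3p (r = 0.947), and for miR-181d-5p miR-1839-3p (r = 0.956), miR-421-3p (r = 0.938) and miR-154-5p (r = 0.921). After removal of group means, the closest row was miR-126b-3p for miR-181a-5p (r = 0.810), let-7e-5p for miR-181b-5p (r = 0.832) and miR-181c-5p (r = 0.777), and miR-149-5p for miR-181d-5p (r = 0.875).

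Within the family, deviations from the group means ran together for the 4 strands with the shared seed, with r from 0.621 to 0.817 over 20 libraries. The highest value of any pair was r = 0.852, between miR-181a-1-3p and miR-181c-3p, the 3p strands with a common seed from chromosomes 1 and 8. Both had their lowest wild-type normoxic level in replicate 5, at 761 and 314 CPM, the library that stood apart above. The r without that library was not computed. Over the log2 levels themselves that pair had r = -0.029. miR-181a-1-3p deviated with miR-181a-5p at r = 0.231 and miR-181c-3p with miR-181c-5p at r = 0.544.

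The family was set beside 24 other miRNAs studied in ischaemic brain injury, a list drawn up with earlier results of these data known. In wild type 14 of the 24 were higher after OGD and 0 lower by limma, and in knockout 15 were higher and 0 lower, where 18.7% and 18.8% of all rows were called higher. Of the list, 20 lay at a mean log2 level of at least 3, and 13 of these 20 were called higher in each genotype, beside 33.9% of rows at that level in wild type and 36.9% in knockout. The median log2 change of the list was 0.52 in wild type and 0.50 in knockout, above that of the miR-181 rows by value. The wild-type count was 9 without normoxic replicate 4 or without OGD replicate 3. Centred on the library median, 2 were called higher and 3 lower in each genotype. Called in both genotypes were 12, led by miR-210-3p, the hypoxia-induced miRNA, at 2.49 in wild type and 2.08 in knockout. The others were miR-23a-3p (1.00 and 0.97), miR-29c-3p (0.84 and 0.83), miR-15a-5p (0.78 and 0.81), the neuronal miR-124-3p (0.74 and 0.56), miR-16-5p (0.72 and 0.76) and miR-7a-5p (0.64 and 0.87), a miRNA bound by ciRS-7. With smaller values in wild type came miR-34a-5p, a p53 target, (0.61 and 0.65), miR-27a-3p (0.60 and 0.47), miR-29a-3p (0.52 and 0.34), miR-322-5p (0.51 and 0.54) and miR-146a-5p (0.51 and 0.53). Of these 12, miR-210-3p, miR-124-3p, miR-29c-3p, miR-15a-5p, miR-16-5p, miR-23a-3p and miR-7a-5p were positive in both genotypes under each of the 4 scalings. By limma 0 of the 24 passed for the loss of ciRS-7 in normoxia or after OGD, beside 0% of all rows. Among them miR-7a-5p was lower by value in knockout without passing. Its log2 difference was -0.62 in normoxia (SE 0.15, limma adjusted p = 0.838) and -0.39 after OGD (SE 0.099, limma adjusted p = 0.272).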

How the data were processed

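Total RNA (TRIzol) was cleared of DNA and sequenced as size-selected small RNA libraries from a NEBNext kit, per the labels' protocols. The submitters' processing notes name the build mm10. The aligner, the miRBase release and the handling of reads shared by similar miRNAs are not given in the sources used here. The deposited values, named as log CPM, were treated as a score because they reach 35.8 to 37.3, above the largest log2 CPM of 19.9. They followed whole reads times a library factor raised to a power of 0.106 to 0.118, with the extremes of each group of 5 pulled to the 0.16 and 0.84 quantiles. Undoing this gave whole reads for 100% of values in all 6 tables (largest distance 6.47e-08, 59.4% to 62.4% before extremes were restored). Reads compared between tables numbered 59070, of which 0 differed, and a simulation recovered 88860 of 88860 values.

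CPM was the recovered reads scaled to the library size implied by the deposited values (0.923 to 1.08 of the read total), where the plan had named the library total. Scaling to the sum of recovered reads was added as an alternative after seeing the data. Tests used limma 3.58.1 in R 4.3.3 with a mean-variance trend on log2(CPM + 0.5), over the 10 libraries of each comparison or all 20 for the interaction, adjusted over all rows, with a threshold of 0.05. Fold changes are on that scale. On simulated data for OGD in wild type (1478 rows, 5 runs), 62.8% of rows changed 1.5-fold were recovered and 8.99% of calls were false. Arm ratios used the same test, and ratios between members an exact permutation test. Named were all rows called miR-181, for each 5p strand the 3 rows outside the family most correlated with it and 1 after removal of group means, and the list members called in both genotypes. The 7 rows and the lists were chosen with earlier results of these data known. Intervals and the limit of 3 reads cover counting error or the spread between replicates only. Replicates differed by more than sampling noise (chi-square divided by its degrees of freedom at least 16.5), so none was counted as a duplicate. The alternatives were other pseudocounts, filters, scalings, voom, thinning, the deposited values, 1 fit of all libraries, a replicate block and leaving out each library.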

Additional observations from a re-analysis of the deposited data

Results flagged for a closer look

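Of 88 groups of 5 libraries examined for a single library far from the rest, 3 held one (3.41%), where chance gives about 1 in 20. After OGD, wild-type replicate 3 had 65.4 CPM of miR-181a-2-3p, below the others at 96.7 to 98.8 CPM, on 77 reads in the shallowest library. In knockout normoxia, replicate 1 gave 10.01 miR-181a-2-3p reads per 1000 miR-181a-5p reads, above the others at 9.19 to 9.36. In knockout normoxia, replicate 5 had 27.9 times as much miR-181d-5p as miR-181c-5p, against 23.1 to 24.1 in the others.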

How the results depend on the processing

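The arm ratios, in which library scaling cancels, kept their calls: all 128 values of the 4 miR-181 stems among the 118, in both genotypes, stayed lower after OGD and past the threshold of limma under each alternative run (-1.04 to -0.33, highest adjusted p = 0.0277). For the loss of ciRS-7 and the interaction, 0 of the 765 values for the 10 miR-181 rows passed (lowest limma adjusted p = 0.213). Scaling to the read sum of each library, which was added only once the data had been seen, kept direction and call in 78 of 78 changes of miR-181 rows, arm ratios and ratios between members. Calls of the 5p strands changed with the other scalings. With libraries centred on their median, members called were 2 in wild type and 2 in knockout (25.2% and 29.5% of all rows), and with median-of-ratios size factors 3 and 3 (21.2% and 22.7% of all rows). Centred values in wild type and knockout, with or without the replicate block, were -0.075 and -0.051 for miR-181a-5p, -0.27 and -0.22 for miR-181b-5p and -0.23 and -0.15 for miR-181d-5p. For miR-181c-3p they were -0.30 and -0.26, and its knockout value was -0.015 with median-of-ratios factors. Leaving out 1 library gave 3 to 5 members called in wild type (3 without normoxic replicate 2) and 5 to 7 in knockout.

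Rows called for OGD numbered 341 in wild type, 223 with only rows at a mean log2 of at least 3 and 693 with voom. In knockout they numbered 363, 784 with voom and 239 in libraries thinned to the shallowest. For the loss of ciRS-7, limma called 0 rows, but 33 in normoxia and 72 after OGD on the deposited values. After OGD it also called 1 when thinned, 4 in a fit of all 20 libraries, and 0 to 22 without 1 library (22 without knockout replicate 5). The interaction called 1 when thinned and 0 to 1 without 1 library (1 without wild-type OGD replicate 1). Ratios between members called numbered 5, 0 when thinned and 0 to 7 without 1 library (7 without wild-type normoxic replicate 3, otherwise 0). The counts without 1 library say nothing of stability. Each of the 5 kept the smallest exact permutation p that 4 libraries against 5 allow, 0.0159, in all 10 tests of its own libraries. That too was fixed in advance, as their groups did not overlap. Of the ischaemia list, 14 were called in wild type, 5 centred, 7 with quantile normalization, 8 with median-of-ratios factors and 9 to 14 without 1 library. In knockout 15 were called, 5 centred, 8 with quantile normalization and 9 with median-of-ratios factors. For the loss of ciRS-7 after OGD, 0 to 1 were called without 1 library (1 without knockout replicate 5).

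Replicate numbers are shared by the groups, and the labels do not say whether a number marks a shared litter or day. For OGD in wild type, same-numbered libraries deviated together with r over 0.1 in 4 of 5 pairs (r = -0.17 to 0.66). In knockout they did so in 4 of 5 pairs (r = -0.21 to 0.49). The planned main fits left the number out, and the replicate block used it. The numbers correlated best with their own in 4 and 3 of 5 libraries. With the replicate block, limma called 389 rows in wild type and 403 in knockout, and 5 and 7 members. With the replicate block on centred libraries, 5 members were called in wild type and 3 in knockout, all lower, beside 20.6% and 23.5% of all rows called lower. The block also made the wild-type fall of miR-181b-2-3p pass (-0.74, limma adjusted p = 0.0227), as did the fit of all 20 libraries (limma adjusted p = 0.0274). That fit called 5 members in knockout in place of 7, without miR-181a-2-3p and miR-181c-3p (limma adjusted p = 0.0610 and 0.115). The block left 0 ratios between members past the threshold, as 5 pairs allow no p below 0.0625. Depth limits miR-181b-2-3p and miR-181d-3p, which had under 100 reads in most libraries. Fewer rows were tested under the filter, and the cause of the other changes was not tested.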
